A study of Homo sapiens with 3 samples.

Results

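RNA polymerase subunits, general transcription factors, TBP-associated factors, Mediator subunits and SPT factors formed the set, chosen as the genes whose symbols begin with POLR1, POLR2, POLR3, GTF2, GTF3, or with TAF, MED or SUPT followed by a digit. Of 8812 transcripts listed in all 3 libraries, 1 per gene, 79 carried such a symbol. They comprised 19 polymerase subunits, 19 general factor genes (GTF), 15 TAFs, 21 Mediator subunits and 5 SPT factors. A further 2 symbols that match were listed in some libraries only: GTF2IRD2 in Untreated A, and TAF1L in Untreated B and G418 A. Of the 79 genes, 67 reached the minimum used for every test, 128 reads on the coding sequence (CDS) averaged over the libraries, and 5684 of all transcripts did. The member nearest above that minimum was MED28 with a mean of 157 reads and the nearest below it was GTF2IRD1 with 118 reads.

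The libraries were ribosome profiling libraries of HEK293T, an established human embryonic kidney line that expresses the SV40 large T antigen. Ribosome footprints were counted in 2 libraries of untreated cells (Untreated A and Untreated B) and in 1 library of cells given 500 µg/mL of the aminoglycoside G418 for 24 hours (G418 A). G418 binds the decoding center of the ribosome and lets near-cognate tRNAs, at stop codons as well as sense codons, be accepted more often. The G418 group analysed here was a single library with no replicate, and every p-value below assumes that it varies as the untreated pair did. The study describes its replicate libraries as biological replicates.

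RNA polymerase I transcribes the large ribosomal RNA precursor, RNA polymerase II transcribes mRNA, and RNA polymerase III transcribes tRNA, 5S RNA and other short RNAs, and all of them share a small group of subunits. The general factors (TFIIA to TFIIH for polymerase II, TFIIIC for polymerase III, SL1 for polymerase I) place the enzyme on the promoter, and Mediator, built of head, middle, tail and kinase modules around a scaffold, passes signals from activators to polymerase II. The SPT factors act later, on elongation through chromatin, or within the coactivator SAGA.

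The depths of Untreated A, Untreated B and G418 A were 5857230, 9477972 and 7216039 reads. The 79 genes held 0.854%, 0.846% and 0.843% of the CDS reads of these libraries. Markers of the line were read at RPKM (reads per length of CDS and depth) of 1710 to 2163 for VIM, 40.6 to 62.4 for NEFL, 12.5 to 21.3 for NEFM, 11.8 to 17.9 for INA and 7.37 to 8.40 for LHX1. PAX2 was listed in Untreated B only, at 1.28. PTPRC, ALB, INS and MYH7, markers of leukocytes, hepatocytes, beta cells and muscle, were listed in no library, and the fibroblast gene COL1A1 had 7.98 to 10.7 RPKM.

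CDS density, the footprints per length of CDS and depth, ranged widely across the machinery. POLR2L and POLR2K, subunits that all RNA polymerases share, stood at the top together with GTF2H5 of TFIIH. Values are given in the order Untreated A, Untreated B, G418 A. POLR2L had 469, 542 and 517 RPKM, and POLR2K had 562, 388 and 360. POLR2H had 187, 220 and 200, and POLR2E had 183, 217 and 265. The untreated values of POLR2L and POLR2K overlapped, as did those of POLR2H and POLR2E, so neither pair could be ordered, but both genes of the first pair lay above both of the second in every library.

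Among the subunits found in RNA polymerase II alone, POLR2G, a stalk subunit, had the highest density, with 241 RPKM in both untreated libraries and 255 in G418 A. POLR2I followed with 141, 141 and 150, then POLR2C, a subunit of the assembly platform, with 114, 128 and 147. POLR2B, which forms the active site cleft together with POLR2A, had 98.5, 80.7 and 77.5. POLR2J had 48.9, 75.3 and 73.4 and POLR2A, the catalytic subunit, had 47.2, 54.4 and 53.4, ranges that overlapped in the untreated libraries. The value of POLR2A rests on a short gene model of 1701 coding nt. GENCODE version 44 classes that transcript as a retained intron transcript spanning chr17:7484620-7499758 of a gene that runs to position 7514616 (hg38), so the density covers only part of the protein's message and the stop codon used for it below is not that of the full subunit.

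RNA polymerase I and III subunits were read at densities that overlapped those of the sparser polymerase II subunits. POLR1A, the catalytic subunit of polymerase I, had 19.2, 18.4 and 21.2 RPKM, its partner POLR1B had 30.9, 30.2 and 31.8, and POLR1E had 63.6, 45.9 and 51.4. In polymerase III, POLR3C had 49.4, 45.1 and 46.1, and POLR3D had 19.2, 24.6 and 22.7. POLR3A, the catalytic subunit, had 37, 39 and 25 CDS reads and was not tested. Its model held 489 coding nt against 4173 in the MANE Select transcript, the single reference transcript per gene of RefSeq and Ensembl.

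In the general factors, densities within TFIIH ranged most widely. GTF2H5, the smallest subunit of TFIIH, had 503, 443 and 322 RPKM, and GTF2H1 of the same complex had 17.6, 15.7 and 23.5. GTF2A2 of TFIIA had 141, 107 and 133 and GTF2B, the single-subunit TFIIB, had 103, 70.1 and 78.6, whereas GTF2E1 of TFIIE had 18.7, 17.8 and 18.1. In TFIIIC the densities lay closer together: GTF3C6 had 87.5, 84.0 and 82.1, GTF3C1, which contacts the internal promoter, had 44.8, 48.6 and 46.8, and GTF3C2 had 23.9, 27.7 and 31.6.

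In TFIID the densities spanned a wide range as well. TAF1, its largest subunit, had 7.73, 7.56 and 7.57 RPKM, and TAF10, a small histone-fold subunit that TFIID shares with SAGA, had 55.3, 53.9 and 82.2. The germline paralog TAF7L was lowest of the TAFs, with 2.77, 2.02 and 2.45 RPKM from 22, 26 and 24 reads. TAF1B of SL1 had 58.4, 56.6 and 57.0.

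In Mediator, the densest middle subunit, MED31 (138, 144 and 120 RPKM), and the densest head subunit, MED29 (87.8, 106 and 103), exceeded MED14. MED14, the scaffold that joins the modules, had 70.7, 77.3 and 85.5. The median untreated density lay below that of MED14, at 50.6 RPKM over 7 middle subunits and 54.6 over 6 head subunits. The members of the kinase module were sparsely read: MED12 had 15.3, 19.6 and 14.4, MED13 had 16.5, 16.01 and 16.8, and the paralog MED13L had 6.73, 6.35 and 7.31. In SAGA, SUPT7L had 25.2, 28.2 and 31.4 and TAF6L had 13.8, 13.1 and 13.4. Of the elongation factors, SUPT16H, a subunit of the histone chaperone FACT, had 126, 123.4 and 105, SUPT5H of DSIF had 60.7, 64.0 and 63.4, and SUPT6H had 36.5, 42.2 and 34.2.

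**Figure D1:**
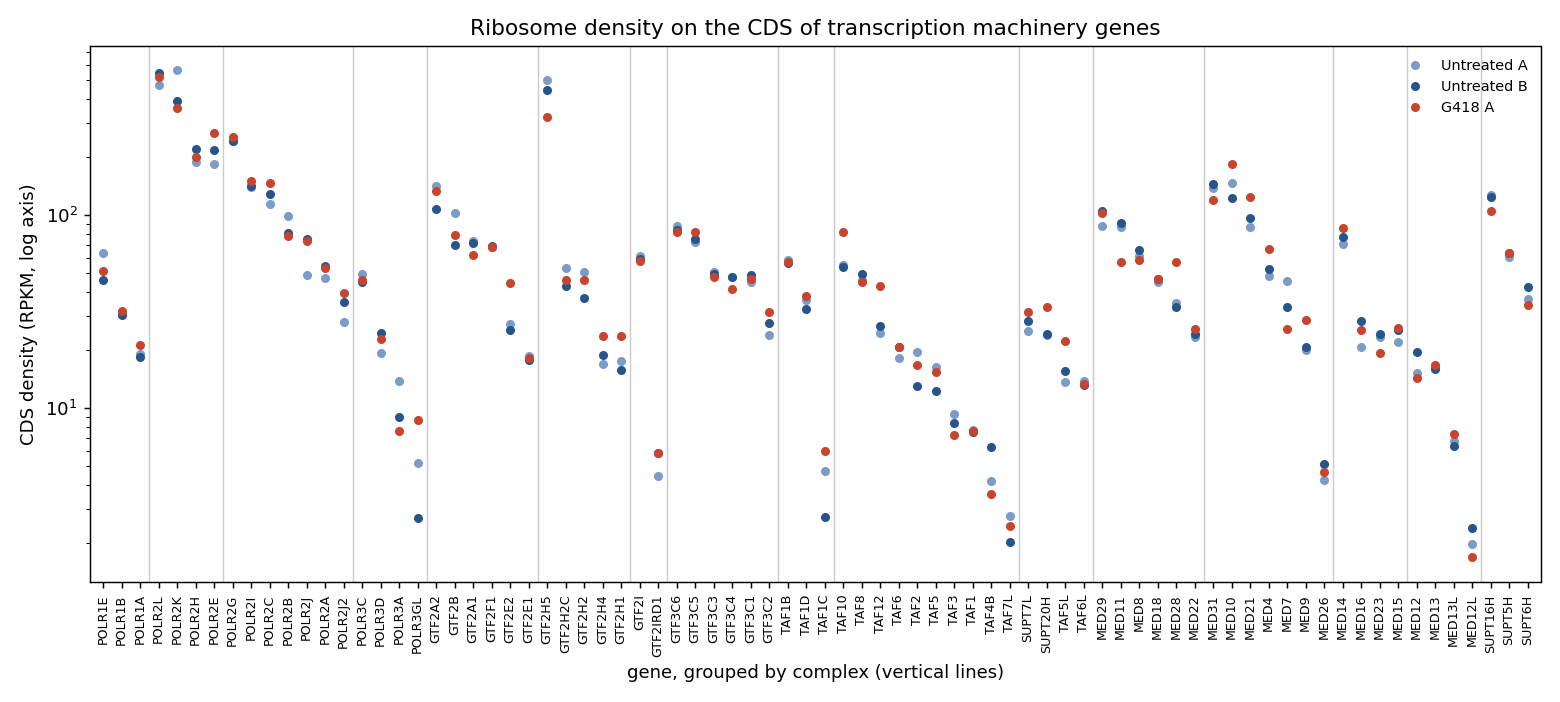
CDS density (RPKM, log axis) of the genes of the set in Untreated A, Untreated B and G418 A, with 1 point per library and vertical lines between complexes. The shared subunits POLR2L and POLR2K and the TFIIH subunit GTF2H5 stand at the top, between 322 and 562 RPKM, and for most genes the G418 point lies close to the untreated points.

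No member passed the test of a change in CDS density with G418. By edgeR's quasi-likelihood test with Benjamini-Hochberg adjustment over all 5684 transcripts, 0 of 67 members were called higher, where 3.04% of all transcripts were, and 0 of 67 were called lower, where 0.581% were. At an unadjusted p under 0.05, edgeR gave 8 members higher (11.9%, against 11.4% of all transcripts) and 1 lower (1.49%, against 3.52%). DESeq2 and edgeR with TMM factors also called 0 members in either direction. Footprint density reflects mRNA level and translation together, and fewer messages cannot be told apart from fewer ribosomes per message.

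The median log2 ratio of CDS RPKM between G418 A and the mean of the untreated pair was 0.05 for members and 0.07 for all transcripts, and that of Untreated B over Untreated A was 0.00 and 0.03. Member ratios ran from -0.64 to 0.75 with G418 and from -0.59 to 0.62 between the untreated libraries. G418 A lay above both untreated libraries for 26 of 67 members (38.8%, against 46.3% of all transcripts) and below both for 19 (28.4%, against 27.9%). The split between members was therefore close to that of the transcriptome.

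The largest ratios upward belonged to subunits of several complexes. GTF2E2 of TFIIE was read at 27.3, 25.3 and 44.4 RPKM, a fitted log2 change of 0.76 ± 0.30 (SE; edgeR adjusted p = 0.16). MED28 of the Mediator head was read at 35.2, 33.5 and 57.2 RPKM, a change of 0.74 ± 0.34 (edgeR adjusted p = 0.26). In both, G418 A lay above both untreated libraries, which were close together.

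TAF5L, a SAGA subunit, had 13.7, 15.6 and 22.3 RPKM and a log2 change of 0.60 ± 0.29. TAF10 had a log2 change of 0.59 ± 0.26. For these genes the edgeR adjusted p was 0.30 and 0.24, and again G418 A lay above both untreated libraries.

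Downward, MED11 of the Mediator head was read at 86.7 and 91.0 RPKM untreated and 57.0 in G418 A, a log2 change of -0.64 ± 0.33 (SE; edgeR adjusted p = 0.35). MED7 of the middle module had 45.7, 33.6 and 25.7 RPKM and a change of -0.62 ± 0.35 (edgeR adjusted p = 0.41). GTF2H5 had the smallest unadjusted p of all members, 0.0091, with a log2 change of -0.55 ± 0.21 and an edgeR adjusted p of 0.14. In these 3 genes G418 A lay below both untreated libraries.

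POLR2K had a log2 change of -0.39 ± 0.22 and an edgeR adjusted p of 0.41. Its untreated values, 562 and 388 RPKM, differed by more than the distance from Untreated B to G418 A (360). MED23 of the Mediator tail had 23.5, 24.2 and 19.3 RPKM, a change of -0.30 ± 0.20 (edgeR adjusted p = 0.51). The catalytic and scaffold subunits lay near 0: POLR1A had a log2 ratio of 0.18, POLR2B one of -0.21, TAF1 one of -0.01 and MED14 one of 0.21.

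**Figure D2:**
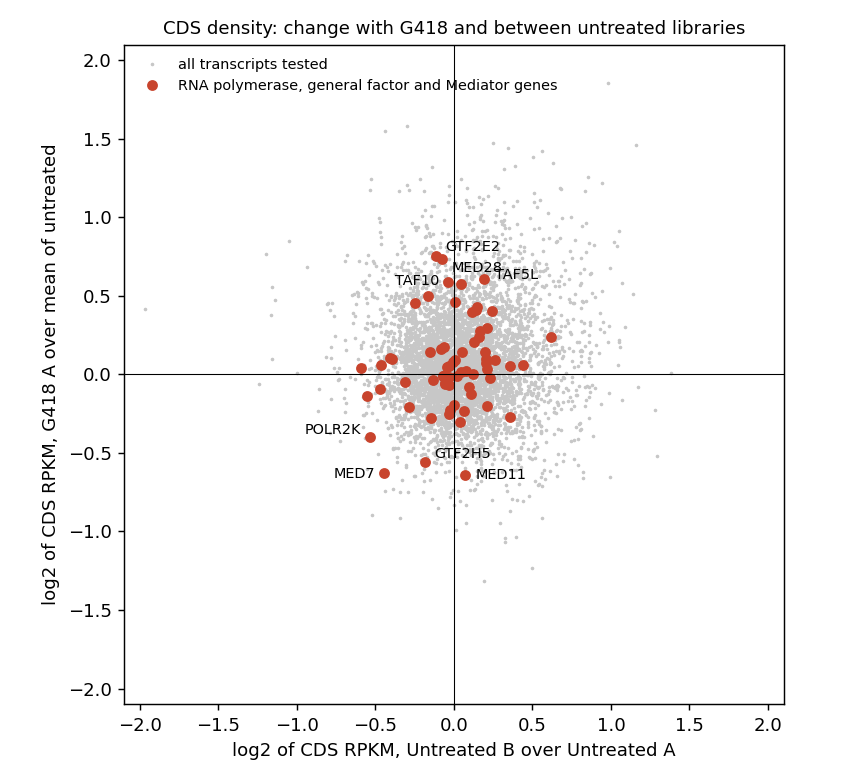
Each point is a tested transcript, with the log2 ratio of CDS RPKM of Untreated B over Untreated A on the horizontal axis and that of G418 A over the untreated mean on the vertical axis. Members (red) fall within the cloud of all 5684 transcripts (grey) on both axes, from -0.64 (MED11) to 0.75 (GTF2E2) vertically.

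Partners of this machinery that carry other symbols (TBP, elongation and pause factors, SAGA and polymerase I partners, cyclins and kinases) were read beside it. Of 71 such genes written down, 56 were listed in all libraries and 47 were tested. Their median log2 ratio was 0.12, and 1 was called higher and 0 lower by edgeR (7 higher and 1 lower at an unadjusted p under 0.05). The called gene was CCNC, cyclin C of the Mediator kinase module, with 170, 116 and 243 RPKM, a log2 ratio of 0.76 (edgeR adjusted p = 0.0011). The untreated libraries themselves differed by a log2 ratio of -0.55 for CCNC.

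The largest ratio of these genes, that of DR1 (0.79, a repressor of TBP, at 44.6, 54.4 and 85.4 RPKM), did not pass the test, nor did that of SSU72 (0.65, a phosphatase of the polymerase II tail, at 60.9, 52.0 and 88.4), with edgeR adjusted p of 0.12 and 0.19. The lowest ratios were those of LEO1 of the PAF complex (-0.54), ERCC2 (-0.45) and ERCC3 (-0.39), the helicases of TFIIH, with edgeR adjusted p of 0.22, 0.47 and 0.35.

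Readthrough, by contrast, set the libraries apart for most members. The ribosome readthrough score (RRTS) is the footprint density from the stop codon to the in-frame stop codon that follows it, over the density of the CDS, and is given here in percent. Pooled over the 67 members, 59 readthrough reads in Untreated A gave 2.48% (95% exact Poisson interval 1.89 to 3.20) and 67 reads in Untreated B gave 1.83% (1.42 to 2.33). In G418 A 743 reads gave 25.9% (24.1 to 27.8). These intervals cover counting error only. The G418 value was 12.01 times the untreated mean of 2.16% ± 0.455 (SD, n = 2). Over all 5684 transcripts the pooled values were 1.57%, 1.25% and 21.3%, a ratio of 15.2. The 47 partner genes had 1.05%, 1.07% and 20.5%.

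At least 1 readthrough read was found for 18, 18 and 51 members in Untreated A, Untreated B and G418 A, in that order (26.9%, 26.9% and 76.1%). The shares over all transcripts were 24%, 22.3% and 75.8%. RRTS in G418 A exceeded both untreated libraries for 48 of 67 members (71.6%, against 71.9% of all transcripts) and lay below both for 0 (against 0.528%). The median RRTS of members was 21.7% in G418 A (18.4% over all transcripts).

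Stop codons are known to differ in how often they are read through, UGA most and UAA least. Of the 67 members 36 ended in UGA (53.7%, against 48.9% of all transcripts), 17 in UAG (25.4% against 21.1%) and 14 in UAA (20.9% against 30.01%). At the pooled G418 rates of all transcripts with the same stop codon, 664 reads would be expected for members (23.1% RRTS), and with the nucleotide after the stop codon taken in as well, 724 reads (25.2%). The interval of the observed 25.9%, which covers counting error only, held the second of these values and not the first. Without POLR2C, left out here and below after its excess was seen, the remaining 66 members had 24.5% (22.7 to 26.4). The values expected for them were 23.8% and 25.5%. Leaving out a gene known to be in excess lowers the value in any case, so the comparison is not a test of the others.

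For UGA the pooled RRTS of members in G418 A was 29.6% (26.9 to 32.5) and that of all transcripts 29.9%. For UAG the values were 19.2% (16.1 to 22.6) and 19.2%. UAA was apart: members had 25.03% (21.3 to 29.2) from 163 reads, and all transcripts 12.2%. At the rates of all transcripts with the same stop codon and following nucleotide, 16.9% would be expected for the UAA members. Without POLR2C the remaining 13 UAA members had 17.1% (13.6 to 21.1), beside 15.8% expected for them in that way.

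**Figure D3:**
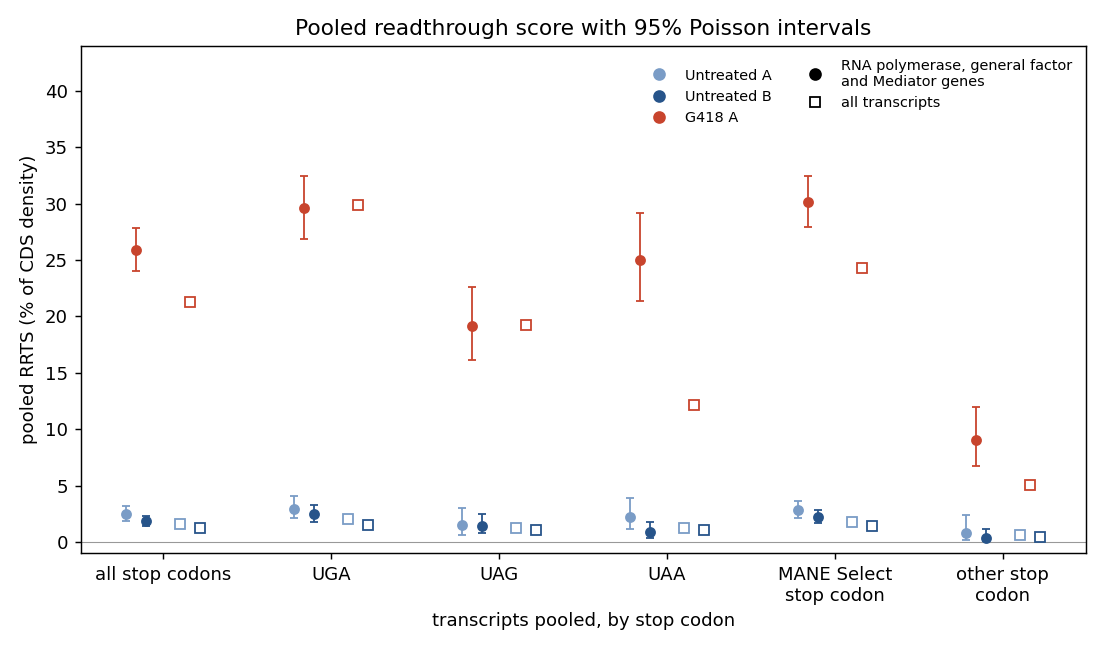
Pooled RRTS (readthrough reads as percent of the reads expected from CDS density) of members (filled circles) and of all transcripts (open squares) in Untreated A, Untreated B and G418 A, with 95% exact Poisson intervals that cover counting error only. The G418 values of members and of all transcripts lie together for UGA and UAG and apart for UAA (25.03% and 12.2%). Without POLR2C, left out after its excess was seen and not drawn separately, the UAA value of members was 17.1%. In both sets the G418 values are lower where the stop codon is not that of the MANE Select transcript.

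Of the UAA members, 4 have a C after the stop codon, and these held 128 of the 163 reads. Their stop codons are shown because they carry most of the UAA signal. Each line gives 15 nt of CDS, the stop codon with the following nucleotide in capitals, and 11 nt beyond, written as DNA 5′ to 3′ from hg38.
POLR2C: gtgctaaccataaatTAACtgcagcttgcc
SUPT16H: aagaaaaagaggaagTAACttctgaacttt
MED10: gatcacccgccttctTAACcagctcaccct
POLR1B: aaactggatgttgttTAACttgatgttgac

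These stop codons lie at chr16:57471117-57471119 on the plus strand (POLR2C), chr14:21352673-21352675 on the minus strand (SUPT16H), chr5:6372503-6372505 on the minus strand (MED10) and chr2:112575727-112575729 on the plus strand (POLR1B), each at the end of the CDS in the terminal exon. POLR2C had 79 readthrough reads in G418 A, SUPT16H 26, MED10 18 and POLR1B 5. Pooled, the 4 genes had 31.3% in G418 A (26.1 to 37.2), against 20.5% (19.9 to 21.1) for 328 transcripts ending in UAAC. Without POLR2C, again left out for its known excess, the other 3 had 19.6% (14.5 to 25.9), beside 20.5% for all UAAC transcripts.

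Taken gene by gene, 3 members passed the test of a rise in RRTS, all of them RNA polymerase subunits. They are also the 3 members with most readthrough reads in G418 A. Pooled, the 16 tested polymerase subunits had 21.7% (19.4 to 24.3) in G418 A. At the rates of their stop codons 24.8% would be expected for them. By edgeR's quasi-likelihood test, with the reads expected from CDS density as offset and adjustment over all 5684 transcripts, 3 of 67 members were called higher (4.48%, against 3.85% of all transcripts). An exact binomial test, which allows for counting error alone, called 35 of 67 higher (52.2%, against 49.4%) and 0 lower (against 0.0352%), and DESeq2 called 0 of 67 and 0 of all transcripts. The share of members called was close to the background by both edgeR and the binomial test.

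POLR2C had no readthrough read in either untreated library and 79 in G418 A. At its CDS density in G418 A, its region of 156 nt less the first 6 nt would hold 159 reads. Its RRTS in G418 A was 49.6% (39.3 to 61.8; edgeR adjusted p = 0.0041). That was 46.8 times the 1.06% that 3 reads over both untreated libraries would give. The ratio leaves out the counting error of the G418 reads. POLR2G had 1, 0 and 65 readthrough reads. Its RRTS was 26.2% (20.2 to 33.4) in G418 A, a ratio to the untreated reads of 131 with a counting interval from 22.6 to 5233, set by the single untreated read (edgeR adjusted p = 0.021).

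POLR2K had 5, 2 and 91 readthrough reads, the most of any member. Its RRTS was 1.15% and 0.412% untreated and 26.5% (21.4 to 32.6) in G418 A, a ratio of 34.9 (counting interval 16.3 to 89.2; edgeR adjusted p = 0.021). Set beside the rate of their stop codon over all transcripts, POLR2K (UGA, 0.889 of the expected reads) and POLR2G (UGA, 0.876) were near it, and POLR2C (UAA) had 4.07 times the expected reads. With the following nucleotide, all transcripts had 20.5% for UAAC, the signal of POLR2C, and 22.8% for UGAG, that of POLR2G. The UAAC rate is above that of UAA (12.2%), so the excess of POLR2C is smaller against its own signal. Together these 3 genes held 31.6% of the readthrough reads of members in G418 A.

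The remaining members with most readthrough reads came from several complexes. TAF1B of SL1 had 0, 6 and 37 reads, an RRTS of 56.6% in G418 A. GTF2H5 had 1, 3 and 34 reads in a region of 24 nt and an RRTS of 81.3% (56.3 to 114). GTF2A2 had 2, 0 and 27 reads (66.98%), SUPT16H had 3, 0 and 26 (14.0%), and GTF2B had 2, 2 and 22 (23.1%). POLR2H had 1, 2 and 18 reads (27.7%). In each of these genes G418 A was above both untreated libraries, and none passed the edgeR test after adjustment.

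By complex, the GTF2H genes of TFIIH had the highest pooled RRTS in G418 A among groups of at least 4 tested genes. It was 60.1% (47.5 to 75.0) from 78 reads on 5 genes, a pair of them near-identical copies. Untreated values were 0.808% and 5.27%. All of these genes end in UGA, and 29.9% would be expected in G418 A at the rate of that stop codon over all transcripts. GTF2H5 and the copies GTF2H2 and GTF2H2C held most of the 78 reads. The partner genes of TFIIH (ERCC2, ERCC3, MNAT1, CDK7 and CCNH) had 32.2% (20.2 to 48.8) from 22 reads, and both sets together 50.5% (41.1 to 61.4). At the rates of their stop codons, 16.3% would be expected for the partner genes and 25.2% for both sets. TFIIA, TFIIB, TFIIE and TFIIF together had 41.2% (32.5 to 51.6) on 6 genes, polymerase II subunits 33.8% (28.9 to 39.4) on 6, and the shared polymerase subunits 15.4% (12.8 to 18.4) on 4. In that order, 17.2%, 22.8% and 26.4% would be expected at the rates of their stop codons. The SAGA subunits SUPT7L, SUPT20H, TAF5L and TAF6L had 1 read in all in G418 A, 1.55% (0.0392 to 8.63), against 3 and 0 reads in the untreated libraries. At the rates of their stop codons only 9.04 reads (14.0%) would be expected in G418 A. The model of SUPT20H could not be matched to the annotation. The SAGA partner genes TADA3, KAT2A, USP22 and TRRAP had 65 reads in G418 A, 21.5% (16.6 to 27.4), and both sets together 17.99% (13.9 to 22.9). The values expected in the same way were 19.3% for the partner genes and 18.4% for both sets. Partner genes were grouped by complex after their values were seen.

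Several short regions were read at or above the density of the CDS itself in G418 A. Among members with at least 10 readthrough reads, the highest RRTS were those of TAF1D (322%), MED4 (207%), GTF2E2 (118%), POLR2B (96.8%), MED18 (84.2%) and GTF2H5 (81.3%). RRTS was over 100% for 4 members (5.97%, against 7.14% of all transcripts). The regions of the 6 named genes are between 24 and 72 nt long, and 11 to 34 reads set each value. The paper reports that, with G418, ribosomes accumulated at the next in-frame stop codon in 3′UTRs. The regions run to that stop codon, whereas the CDS densities leave out the end of the CDS. Ribosomes at that stop codon can therefore weigh more in a short region, and their part in these values was not tested.

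MED4 of the Mediator middle module had 0 and 0 readthrough reads untreated and 24 in G418 A, where 11.6 were expected at CDS density. GTF2E2 had 0, 0 and 25 and POLR2B had 0, 0 and 13. In each of these 3 genes the RRTS in G418 A was 10.4 or more times what 3 reads over both untreated libraries would give. These ratios leave out the counting error of the G418 reads. The stop codon contexts of 2 of them are shown beside those of GTF2H5 and TAF1D, as examples from the members with high RRTS.
MED4: agtagtgagtctgatTGAAaaaccttaaaa
POLR2B: cgaatgatgagtgttTAGCtattttacagg
GTF2H5: tcccttacccagaaaTGAAaatactcaata
TAF1D: agaggcctgaaaatgTGACaggatcatgaa

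The stop codons lie at chr13:48077139-48077141 on the minus strand (MED4), chr4:57030986-57030988 on the plus strand (POLR2B), chr6:158192155-158192157 on the plus strand (GTF2H5) and chr11:93736161-93736163 on the minus strand (TAF1D). The 4 genes use 3 different signals, UGAA, UAGC and UGAC.

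TAF1D, an SL1 subunit, was dense past its stop codon without the drug. It had 23, 12 and 16 readthrough reads, in a region of 24 nt where 3.85, 5.60 and 4.97 were expected. Its RRTS was 597%, 214% and 322%, and the ratio of G418 to both untreated libraries was 0.869 with a counting interval from 0.449 to 1.61. TAF1D alone held 35 of the 126 untreated readthrough reads of members. Without it, the pooled RRTS of members was 1.51% in both untreated libraries and 25.4% in G418 A, a ratio of 16.8.

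MED13 of the kinase module was the other member dense without the drug, with 2, 10 and 9 readthrough reads and an RRTS of 25.6%, 81.4% and 91.8%. Its G418 value was within the counting interval of Untreated B (39.0 to 150%). Readthrough reads in both untreated libraries were found for 7 members (10.4%, against 11.6% of all transcripts): TAF1D, MED13, GTF3C6, POLR2K, GTF2B, POLR2H and GTF2H5. GTF3C6 had 5, 3 and 11 reads and an RRTS of 16.3%, 6.28% and 30.9%.

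At the other end, some well-read members had few or no readthrough reads in G418 A. Of 16 members with at least 10 reads expected at the rate of their stop codon, 3 had 0 reads (18.8%, against 4.9% of 1572 such transcripts) and 5 had under 0.333 of the expected number (31.2% against 19.5%). TAF8, a histone-fold subunit of TFIID, had 0 reads in all 3 libraries, where 16.7 were expected in G418 A. MED21 of the Mediator middle module had 0 in all libraries, with 13.0 expected, and POLR3C of polymerase III had 0 in all, with 10.1 expected. A count of 0 allows an RRTS of up to 3.45% for TAF8, 6.88% for MED21 and 8.84% for POLR3C in G418 A (3 reads).

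POLR2E, a subunit shared by all RNA polymerases, had 0, 0 and 4 readthrough reads, against 50.7 expected in G418 A, an RRTS of 1.52% (0.413 to 3.88). POLR2L, shared likewise, had 0, 4 and 13 against 43.5 expected, an RRTS of 8.93%. GTF3C5 of TFIIIC had 0, 0 and 10 against 21.0 expected, an RRTS of 14.2%. The contexts of TAF8, POLR3C and POLR2E are shown for comparison with those above.
TAF8: aagccagatacattcTAGAgaattgtgaga
POLR3C: accatgaagagacagTGATccagaagaagc
POLR2E: cggctggtgcaccccTAGAggcggacacac

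They lie at chr6:42086732-42086734 on the plus strand (TAF8), chr1:145842418-145842420 on the plus strand (POLR3C) and chr19:1088714-1088716 on the minus strand (POLR2E). The signals UAGA and UGAU occur among them, and over all transcripts those signals had a pooled RRTS of 20.4% and 36.4% in G418 A.

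**Figure D4:**
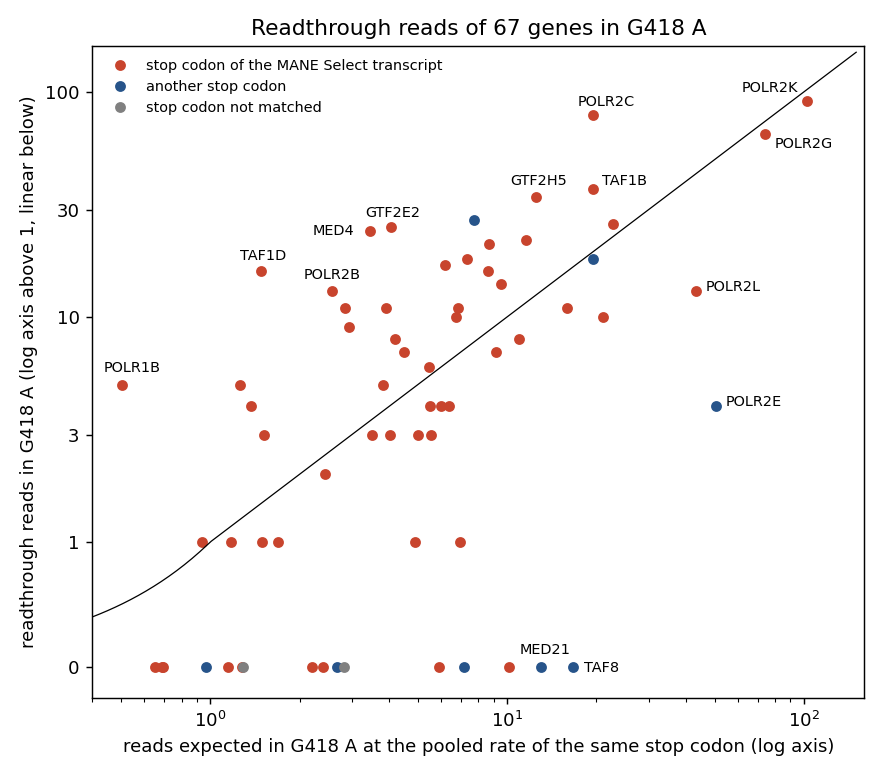
Readthrough reads of each of the 67 members in G418 A (vertical, log axis above 1 and linear below) against the reads expected at the pooled rate of all transcripts with the same stop codon (horizontal, log axis), with a line of equality. POLR2C, MED4, GTF2E2 and TAF1D lie above the line, and POLR2E, TAF8 and MED21, whose stop codons (blue) are not those of the MANE Select transcripts, lie below it.

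Several of the low members share a feature of the gene model. Matched to GENCODE version 44, 57 of the 67 members end at the stop codon of the MANE Select transcript (85.1%, against 88.4% of all transcripts), 8 end at another stop codon (11.9% against 6.6%), and the models of POLR2A and SUPT20H could not be matched. The 8 were TAF8, MED21, POLR2E, MED8, MED23, MED29, POLR2H and GTF2A2. In G418 A the pooled RRTS was 30.1% (27.9 to 32.5) for the 57 and 9.06% (6.70 to 11.98) for the 8. Over all transcripts it was 24.3% for 5023 with the MANE Select stop codon and 5.06% for 375 with another. The part of alternative isoforms in these values was not tested.

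Within the 8 the spread was wide. TAF8, MED21, MED8, MED23 and MED29 had 0 readthrough reads in every library, whereas GTF2A2 and POLR2H had RRTS of 66.98% and 27.7% in G418 A. Without POLR2E the remaining 7 had 16.3% (11.9 to 21.8). POLR3C ends at the MANE Select stop codon and had no read in its 3′UTR in any library, so the low group was not made up of other stop codons alone. POLR2A and SUPT20H also had 0 readthrough reads in all libraries.

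Of the 67 members 4 have a 3′UTR without a further stop codon in frame, so that the region runs to the end of the message (5.97%, against 4.26% of all transcripts). Among them, POLR2I had 0, 0 and 8 readthrough reads, MED16 0, 0 and 1, and MED21 none. At the rates of their stop codons 11.01, 6.92 and 13.0 would be expected in G418 A.

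Over the whole 3′UTR, 119 of 33604 reads of the 79 genes lay there in Untreated A (0.354%, Wilson 95% interval 0.296 to 0.424). Untreated B had 166 of 54434 (0.305%, 0.262 to 0.355) and G418 A 1191 of 43014 (2.77%, 2.62 to 2.93). The G418 share was 8.402 times the untreated mean, and over all transcripts the ratio was 7.06. In G418 A 35.9% of the 3′UTR reads of members (33.3 to 38.7) lay outside the readthrough region, against 35.6% over all transcripts. The untreated shares were 50.4% and 59.6%, and over all transcripts 66.6% and 68.1%.

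Single genes held many of the reads outside the readthrough region. POLR2L had 0, 12 and 32 of them, MED4 2, 3 and 31, GTF2A2 8, 7 and 24, and POLR2C 1, 0 and 20. GTF3C4 of TFIIIC, whose 3′UTR counts 6002 nt, had 19 in G418 A with 0 readthrough reads, and 3 and 8 in the untreated libraries. These genes had more in G418 A than in either untreated library.

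The 5′UTR held similar shares in the 3 libraries. The 79 genes had 2.12%, 2.11% and 2.03% of their reads there, with a Wilson 95% interval of 1.90 to 2.17 in G418 A that held both untreated values, against 2.35%, 2.45% and 2.15% over all transcripts. The members with the densest 5′UTR relative to CDS were MED16 (ratios of 1.59, 0.790 and 0.955), TAF2 (0.873, 1.32 and 0.890), SUPT7L (0.954, 0.963 and 0.860), GTF2A2 (0.772, 0.460 and 0.613) and GTF3C5 (0.283, 0.218 and 0.269). For each of these genes but SUPT7L, the G418 ratio lay between the untreated ratios.

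Values of genes with near-identical copies are uncertain, because a read that fits several places was kept at a single one. GTF2H2 and GTF2H2C, copies of a TFIIH subunit gene on chromosome 5, carry the same 30 nt around the stop codon.
GTF2H2: gctccttcaggtgttTGATtccagcatgta
GTF2H2C: gctccttcaggtgttTGATtccagcatgta

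GTF2H2 had 0, 2 and 16 readthrough reads and GTF2H2C 0, 4 and 21. POLR2J, with copies on chromosome 7, had 0, 0 and 2 readthrough reads but 3, 12 and 16 reads elsewhere in its 3′UTR, and its copy POLR2J2 had 13, 21 and 15 there. GTF2I had 0, 2 and 10 readthrough reads.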

How the data were processed

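Ribosome footprints of HEK293T cells were read in 2 untreated libraries and 1 G418 library, grouped by the treatment label. The authors collapsed duplicates by molecular identifier, discarded noncoding RNA, aligned the rest with STAR to hg38 guided by GENCODE, kept the primary alignment of reads with several matches, and assigned footprints of 28 to 35 nt to 1 transcript per gene. They deposited RPM values per region (reads per mapped depth), RPKM densities (RPM over region length), whole-number read counts, and the RRTS as a ratio of densities. The authors left the ends of the CDS (18 and 15 nt) out of the densities, and lengths and stop codon signals were deposited as other columns. Each RPM value was a whole multiple of 1 read within 0.01, and the reads recovered by division were used in place of the deposited count columns, which in Untreated A were mostly 1 lower.

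CDS reads were tested with edgeR 4.0.16 (glmQLFit and glmQLFTest, two-sided, R 4.3.3), with library sizes from the RPM scale and no further scaling. Readthrough reads were tested in the same way, with the log of the reads expected from CDS density as offset, and a transcript with no readthrough read in any library counted as tested and not called. Fits ran over all 5684 transcripts that averaged 128 or more CDS reads and had a region of 18 nt or longer, and a threshold of 0.05 was set on Benjamini-Hochberg adjusted p-values. The SE of a log2 change was derived from the F statistic of the edgeR test, so it also rests on the spread of the untreated pair. Scripts were tested on simulated data. DESeq2 1.42.0, TMM, other minimums and models were tried as alternatives.

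Genes were named by rule: the 5 largest and 5 smallest CDS changes, the 12 with most readthrough reads in G418, the 6 highest RRTS with at least 10 reads, the 6 lowest readthrough counts relative to expectation, the extremes of density in each complex, catalytic and scaffold subunits, genes with readthrough in both untreated libraries, no further stop codon in frame, the 5 densest 5′UTRs with at least 20 reads, and near-identical copies. The members, lists and rules were chosen with earlier results of these data known. Stop codons were matched to GENCODE version 44, after the data were seen. Sequences on chromosome 8 are not shown, and the values of 1 gene, which the counts and pooled values include, and the stop codon context of another are not reported here.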

Additional observations from a re-analysis of the deposited data

How the results depend on the processing

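Over 48 alternative settings, 39 kept the values reported for the set. The count of members with a change in CDS density was 0 under every setting tried. The median log2 CDS ratio of members, 0.046, was -0.023 with TMM factors, which put the median of all transcripts at 0.00, and -0.012 among members with at least 500 CDS reads, and leaving out an untreated library gave 0.028 to 0.041. The number of members called for readthrough, 3, became 0 with DESeq2 and 35 with the exact binomial test, which has no term for variation between libraries. The readthrough ratio of 12.01 became 16.4 with at least 500 CDS reads, 17.6 with regions of at least 60 nt and 16.8 without TAF1D, an alternative added after seeing the data, as was that of MANE Select stop codons (12.1). Leaving out an untreated library gave 10.4 to 14.1. The 3′UTR ratio of 8.402 became 10.3 with the deposited whole-number counts, and 7.82 to 9.08 without an untreated library. Of 88 settings for single genes, 85 kept the direction and the side of the threshold, and POLR2C, POLR2G and POLR2K lost the call with DESeq2 alone. Leaving out an untreated library leaves no residual degrees of freedom for the tests, so those values are ratios without a test. No paired analysis was possible because Untreated A and G418 A share only a letter and the groups have fewer than 2 letters in common. With 1 G418 library and a median of 21.1 reads expected in a readthrough region in G418 A, counts of 0 to 3 set many single-gene scores.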
